A study of Mus musculus with 6 samples.

Results

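The genes described here encode the constitutive proteasome, its assembly factors and its activators. They were chosen by symbol: every row of the deposited table whose name starts with Psma to Psmg and a digit, without the immunoproteasome genes Psmb8, Psmb9 and Psmb10 and without rows named as pseudogenes. The rule gave 47 of the 24930 genes in the table. Polyadenylated RNA was sequenced from mouse crypt epithelium, the cell layer lining the intestinal crypts, at day 4 of an induced mutation. The groups were β-cateninGOF/+ crypts, heterozygous for a gain-of-function β-catenin allele, and Control crypts, with 3 libraries each. The sources used here do not state the driver of the induced allele, the controls' genotype, the age of the mice or the part of the intestine. They also do not tell whether each library is a different mouse, so a p-value here reflects library-to-library spread that may be technical.

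The proteasome is a barrel of stacked rings that cuts ubiquitin-tagged proteins into peptides. The core particle, called 20S, has outer alpha rings that gate the entry and inner beta rings that hold the catalytic sites, and the cap, called 19S, binds ubiquitin chains, removes them and feeds the unfolded chain into the core with a ring of ATPases. β-catenin is a well-known substrate: in the absence of a WNT signal it is phosphorylated, ubiquitinated and degraded by this machine, and gain-of-function alleles of β-catenin commonly lack the phosphorylated stretch.

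Promoter sequences of 4 members are shown, 2 cap genes with groups that did not overlap and 2 core genes with groups that did. All 4 had positive log2 differences, mutant minus control: 0.35 for Psmd4, 0.36 for Psmc4, 0.12 for Psma6 and 0.21 for Psmb6. Each run is the 250 bases before the RefSeq start, 5′ to 3′ on the strand of the gene, in build GRCm38.p6, and the capitals mark matches to CCAAT or TGANNNNGC on either strand. The windows are chr3:95042615-95042864 (minus strand) for Psmd4, chr7:28050093-28050342 (minus strand) for Psmc4, chr12:55383972-55384221 (plus strand) for Psma6, and chr11:70525107-70525356 (plus strand) for Psmb6. In the GENCODE annotation of the same build, 9 bases of the Psmc4 window lie in an exon of Psmc4 itself, and 0 bases of the other windows lie in an exon. Psma6 has another RefSeq start downstream, with the window chr12:55398575-55398824. That window holds 50 bases of an annotated Psma6 exon, 0 CCAAT and 1 TGANNNNGC, and is not printed.
Psmd4: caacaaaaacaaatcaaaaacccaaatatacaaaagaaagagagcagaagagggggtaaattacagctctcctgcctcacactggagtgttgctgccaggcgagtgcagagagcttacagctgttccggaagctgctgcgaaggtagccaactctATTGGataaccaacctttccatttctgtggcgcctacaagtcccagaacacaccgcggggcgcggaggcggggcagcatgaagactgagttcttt
Psmc4: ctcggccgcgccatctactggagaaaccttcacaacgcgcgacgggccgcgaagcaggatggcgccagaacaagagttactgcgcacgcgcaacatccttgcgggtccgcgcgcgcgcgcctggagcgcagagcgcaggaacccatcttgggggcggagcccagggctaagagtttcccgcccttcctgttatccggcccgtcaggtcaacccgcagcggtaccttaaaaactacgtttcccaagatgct
Psma6: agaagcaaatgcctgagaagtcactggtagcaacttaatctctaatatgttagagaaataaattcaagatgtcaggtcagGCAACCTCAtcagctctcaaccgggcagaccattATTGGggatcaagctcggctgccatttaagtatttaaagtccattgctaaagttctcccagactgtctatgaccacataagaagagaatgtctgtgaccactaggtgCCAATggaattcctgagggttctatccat
Psmb6: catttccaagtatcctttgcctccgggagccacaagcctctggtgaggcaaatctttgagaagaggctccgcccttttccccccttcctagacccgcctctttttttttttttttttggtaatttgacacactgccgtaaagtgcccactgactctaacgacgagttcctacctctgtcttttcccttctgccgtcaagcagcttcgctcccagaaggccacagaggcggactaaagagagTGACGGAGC

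CCAAT is bound by the factor NF-Y, and TGANNNNGC is the core of the antioxidant response element, which NRF1 and NRF2, known activators of proteasome genes, recognise. 39 members had 42 promoter windows in the table of sequences, of which 14 held CCAAT (33.3%) and 17 held TGANNNNGC (40.5%). The shares over all 32851 promoters of that length were 33.8% and 35.2%. The longer letters TGACTCAGC, which contain the shorter pattern, were in 0 member windows and in 0.390% of all windows. Of the core windows 6 of 12 held CCAAT and 6 of 12 held TGANNNNGC, against 4 of 15 cap windows for each. These are counts of letters in a window, with no measure of binding. For Psma4, Psma7, Psmc5 and Psme2b the bases after the start did not match the opening part of an annotated transcript of that gene. Psma4, with 1 TGANNNNGC, and Psma7, with 1 CCAAT, are still counted among the core windows. Some windows, such as those of Psma4, Psmd13 and Psmb11, lie wholly in annotated exons.

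Levels are printed in units, the authors' normalized expression scale. Genes with a single annotated transcript and a value above 0 in 1 library alone gave values that, times the shortened transcript length, clustered within 3% of a common step, from 18 of 39 such genes in control 1 to 58 of 100 in mutant 3. Units are therefore taken as per length, and levels are compared between genes on that basis. From that step each library was estimated to hold between 10642125 and 16482632 reads. Members with a mean of at least 5 units (43 of 47) had an estimated 49.7 reads or more in every library, with a counting error of at most 14.2%. Epithelial markers were high in all libraries (Epcam from 594 to 1054 units). 3 libraries were male and 3 female by Xist and Y-linked genes, with 2 males among the controls and 1 among the mutants. Ctnnb1, the targeted gene, had 246, 248 and 273 units in controls 1 to 3 and 262, 236 and 285 units in mutants 1 to 3. Reads of both alleles enter that value, so it is no check of the mutation. Defensin genes of Paneth cells took from 11.1 to 49.9% of all units in a library, so shares of the total move with that cell type.

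No single proteasome gene passed the test between β-cateninGOF/+ and Control crypts. The cap genes nevertheless all had small positive differences, while the core genes had differences of both signs, the negative ones mostly in the alpha ring. Cap genes here are the 17 Psm-named subunit genes, without the cap subunit genes Adrm1 and Sem1, which are given further below. All 17 cap genes had a positive log2 difference, with a median of 0.18, and 8 of 14 core genes did, with a median of 0.11. Within the core, 2 of 7 alpha genes were positive, with a median of -0.013. All 3 catalytic beta genes were positive, with a median of 0.19, and 3 of 4 other beta genes, with a median of 0.11. In 9 of the 17 cap genes (52.9%) every mutant value lay above every control value, and in 0 of the 14 core genes. Over all members tested, 12 of 45 were apart in this way (26.7%), against 8.34% of all 11837 genes tested. No member was below all controls in every mutant library, against 8.37% of all genes. In the test itself 0 of 45 had an adjusted p under 0.05 in limma, and the smallest adjusted p was 0.589. At an unadjusted p under 0.05, 3 members were higher and 0 lower. The 3 were Psmd3, Psmc4 and Psmc3ip. Psmc3ip, also among the 12 members apart, was taken in by its symbol, is not a subunit gene and has an uncertain value. Over all genes tested 0.0169% passed the adjusted threshold, and 4.72% were higher and 3.59% lower at the unadjusted one. In all, 34 of 45 members had a positive difference, against 47.3% of all genes, and the median log2 difference was 0.12 beside -0.018 over all genes. Members were not independent of each other, since they moved together from library to library, so these counts describe the list and do not test it.

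**Figure D1:**
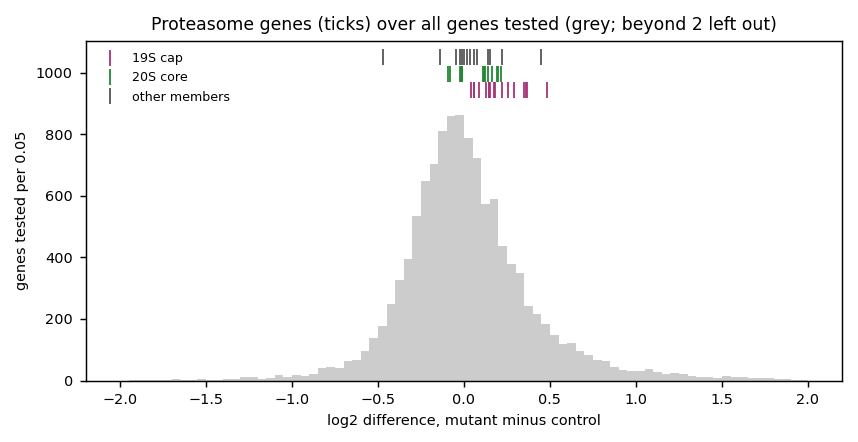
Distribution of the log2 difference, mutant minus control, on the log2(units + 1) scale. Grey bars count all genes tested per step of 0.05, and ticks mark 17 cap genes, 14 core genes and the other members tested; all cap ticks lie above 0.

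**Figure D2:**
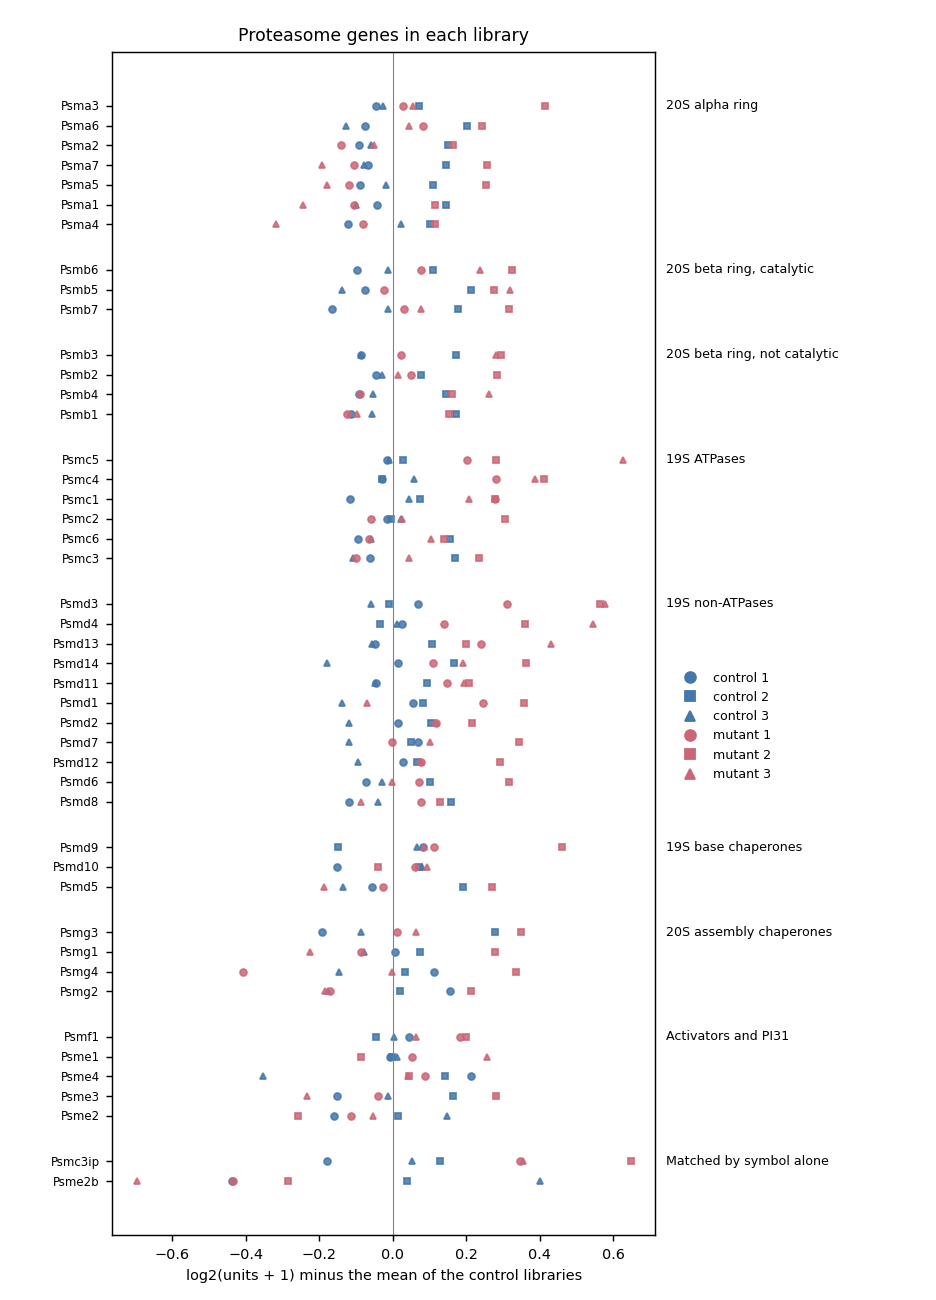
Each row is a member that was tested, grouped by role, and each point is a library, as log2(units + 1) minus the mean of the 3 control libraries. In Psmd3, Psmc4, Psmc5, Psmd4, Psmd13 and Psmc1 the red mutant points lie to the right of all blue control points. In the core and cap rows control 2 and mutant 2 (squares) mostly lie to the right of the others of their group.

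Among the cap's non-ATPase subunits, the scaffold and ubiquitin-handling part of the cap, Psmd3 had the largest difference. Psmd3, which encodes the scaffold subunit Rpn3, had 64.0, 60.6 and 58.6 units in controls 1 to 3 and 76.0, 90.7 and 91.5 units in mutants 1 to 3. All mutant values were above all control values, and the log2 difference was 0.48 ± 0.14 (SE, n = 3 each) with an adjusted p of 0.589 in limma. Psmd4, the gene of the ubiquitin receptor Rpn10, had 67.9, 65.1 and 67.3 units in controls and 73.7, 85.9 and 97.7 units in mutants. The controls lay close together and the mutants were spread more widely, with mutant 3 the highest (log2 difference of 0.35 ± 0.15, adjusted p of 0.589 in limma). With array weights, which count less consistent libraries less, the difference of Psmd4 was 0.16. Psmd13, the gene of Rpn9, had 63.4, 70.7 and 63.0 units in controls and 77.6, 75.5 and 88.7 units in mutants. Again no mutant value fell among the controls (0.29 ± 0.14).

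The remaining non-ATPase genes differed by less. Psmd11, the gene of Rpn6, which clamps cap and core, had 42.5, 46.8 and 42.4 units in controls and 48.7, 50.7 and 50.3 units in mutants (log2 difference of 0.18 ± 0.12). Psmd2, the gene of the large scaffold Rpn1 that docks shuttle factors, had 84.8, 90.3 and 77.2 units and then 91.1, 97.6 and 91.2 units, with a gap of less than 1 unit between the groups. Psmd12, the gene of Rpn5, had 42.2, 43.4 and 38.8 units and then 43.8, 50.9 and 43.7 units, also a narrow gap. Psmd14, which encodes the deubiquitinase Rpn11, stood at 56.0 ± 6.78 units in controls and 65.3 ± 6.01 units in mutants (SD, n = 3 each), with overlapping groups. Psmd1, Psmd6, Psmd7 and Psmd8 overlapped as well, with log2 differences from 0.039 for Psmd8 to 0.18 for Psmd1.

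Of the 6 ATPases, which form the unfolding ring, 3 had groups apart and 3 overlapped. Psmc4, the gene of Rpt3, had 56.3, 56.4 and 59.9 units in the controls and 70.03, 76.8 and 75.5 units in the mutants. The groups did not overlap and the log2 difference was 0.36 ± 0.13 (SE), with an unadjusted p of 0.0255 and an adjusted p of 0.589 in limma. Psmc5, the gene of Rpt6 and the ATPase with the highest mean level, had 86.5, 89.3 and 86.8 units in controls and 101, 107 and 136 units in mutants. Mutant 3 was the highest and the controls hardly varied (0.37 ± 0.16). Psmc1, the gene of Rpt2, had 74.1, 84.8 and 83.0 units in controls and 97.8, 97.8 and 93.1 units in mutants, a log2 difference of 0.25 ± 0.13. Psmc2, Psmc3 and Psmc6 had log2 differences of 0.090, 0.059 and 0.060. In Psmc3 the highest control, at 107 units, was above mutant 1 and mutant 3, at 88.8 and 98.2 units.

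**Figure D3:**
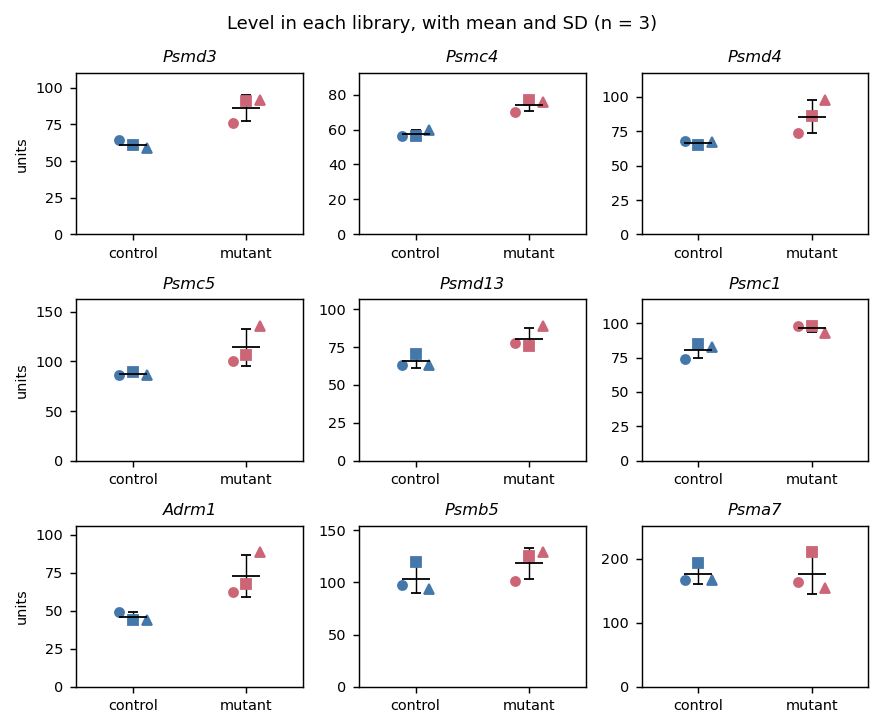
Level in units of 9 genes in each library (circle, square and triangle for replicates 1, 2 and 3), with the mean and SD of each group (n = 3) and axes from 0. The 6 cap genes and Adrm1 have no overlap between groups, and the core genes Psmb5 and Psma7 overlap.

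The core genes had overlapping groups, with replicate 2 high in both. In the alpha ring, which gates the core, Psma7 had the highest mean level, at 167, 194 and 166 units in controls 1 to 3 and 163, 210 and 154 units in mutants 1 to 3. Control 2 and mutant 2 were the high libraries, and the log2 difference was -0.013 ± 0.18. Psma3, the alpha gene with the smallest p and the lowest level, had 57.5, 62.4 and 58.2 units in controls and 60.5, 79.5 and 61.7 units in mutants, so mutant 2 alone stood apart (0.17 ± 0.16). Psma4 and Psma1 had the lowest differences in the ring, with 152 ± 11.9 and 121 ± 10.9 units in controls and 143 ± 21.5 and 115 ± 14.7 units in mutants. Psma2, Psma5 and Psma6 had log2 differences of -0.0092, -0.015 and 0.12. Control 2 was the highest control in 14 of 14 core genes, and mutant 2 was the highest mutant in 12 of 14. The cap shared this pattern: control 2 was the highest control in 12 of 17 cap genes, and mutant 2 the highest mutant in 12 of 17. Genes of dividing cells were also highest in those libraries: their mean score was 0.36 in control 2 against -0.093 and -0.27 in the other controls, and 0.20 in mutant 2 against -0.17 and -0.99 in the other mutants. The part of cell division in the core and cap levels was not tested.

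In the beta ring the 3 constitutive catalytic genes had positive differences with overlapping groups. Psmb5, which carries the chymotrypsin-like site, had 97.7, 119 and 93.4 units in the controls and 101, 125 and 129 units in the mutants, a log2 difference of 0.19 ± 0.17 (SE). Psmb6, which carries the caspase-like site, had 105, 122 and 112 units in controls and 119, 141 and 133 units in mutants, where only mutant 1 fell below the highest control (0.21 ± 0.15). Psmb7, which carries the trypsin-like site, had 124, 157 and 138 units in controls and 142, 173 and 147 units in mutants (0.14 ± 0.17). The beta genes without a catalytic site spanned log2 differences from -0.023 for Psmb1 to 0.20 for Psmb3. Psmb4, the highest of the core genes by mean level, had 160, 189 and 165 units in controls and 161, 191 and 205 units in mutants, and Psmb3 had 146, 175 and 147 units and then 158, 191 and 189 units. In both, mutant 1 lay among the controls.

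A score for each library, the mean over the genes of log2(units + 1) minus the control mean, set the cap against the core within the same library. For the cap it was -0.021, 0.075 and -0.054 in the controls and 0.12, 0.29 and 0.20 in the mutants, so all mutants were above all controls. For the core it was -0.086, 0.14 and -0.055 in controls and -0.036, 0.24 and 0.014 in mutants, and the groups overlapped. Cap minus core was 0.066, -0.067 and 0.0011 in controls and 0.16, 0.053 and 0.19 in mutants, where mutant 2 lay below control 1. The mean of this gap was 0.13 higher in mutants, with an SD between replicates of 0.069, and no test is given because the split was chosen after the values were seen. Among males (2 controls, 1 mutant) the gap was 0.16, and among females (1 control, 2 mutants) it was 0.12. The median log2 difference over all tested members was 0.013 among males and 0.21 among females. The difference between the sexes was not tested.

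**Figure D4:**
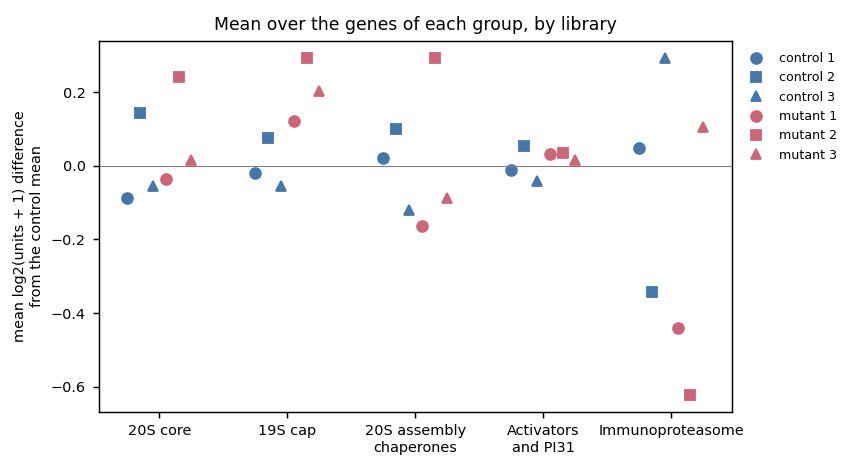
Mean difference from the control libraries in log2(units + 1), for each library (symbols as replicates) and gene group. Of the 5 groups drawn, the cap is the one where all mutant libraries (red) lie above all controls (blue), and the immunoproteasome genes vary most from library to library.

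Among the Psm-named genes, the level per length set the parts of the machine apart. Core genes had mean levels over the 6 libraries from 63.3 to 179 units with a median of 141, and cap genes from 43.8 to 101 units with a median of 72.2. The ranges overlapped through Psma3 alone, the lowest core gene. The cap subunit genes outside the Psm names, Sem1 and Adrm1, had means of 245 and 59.3 units, so Sem1 lay above every core gene. The ratio of the median cap level to the median core level was 0.499, 0.402 and 0.465 in the controls and 0.507, 0.482 and 0.565 in the mutants. The chaperones that build the machine and leave it were lower than either part, at 7.51 to 19.05 units for those of the cap base (Psmd5, Psmd9, Psmd10) and 18.3 to 34.9 units for those of the core (Psmg1 to Psmg4). Core and cap did not overlap with these chaperones in mean level.

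**Figure D5:**
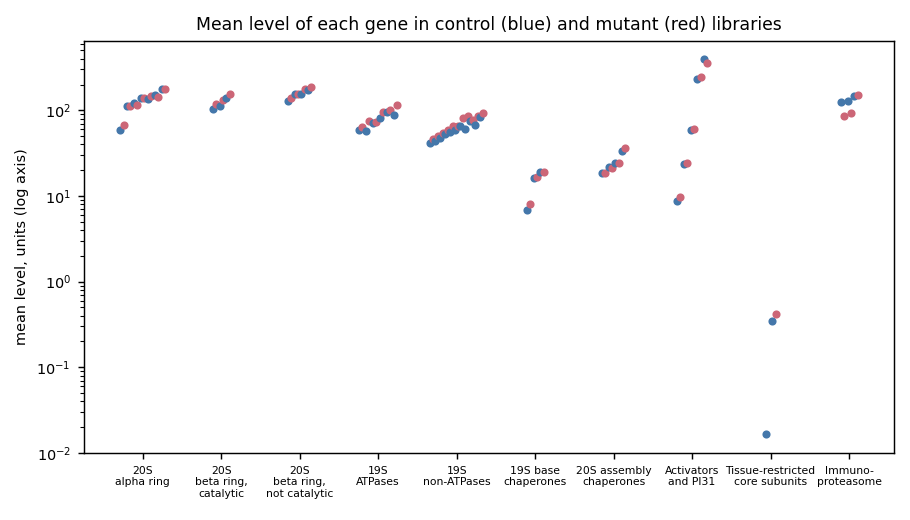
Mean level of each gene in units on a log axis, with control and mutant libraries in blue and red (n = 3 each), by role. Core genes lie above most cap genes, chaperones lie below both, and the tissue-restricted subunits Psma8 and Psmb11 lie below 1 unit; Psma8 was at 0 in all mutant libraries and has no red point.

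Chaperone genes differed little between the groups. Psmd9, which encodes a chaperone of the ATPase ring, had 7.28, 6.06 and 7.19 units in controls and 7.45, 9.76 and 7.30 units in mutants, apart by less than 0.1 units (log2 difference of 0.22 ± 0.16). Psmd5 and Psmd10, the genes of other base chaperones (Psmd10 is also called gankyrin), had 18.9 ± 2.39 and 16.1 ± 1.52 units in controls and 19.2 ± 3.30 and 16.5 ± 0.826 units in mutants. Psmg3, the core chaperone gene with the smallest p and the highest level of its group, had 28.7, 40.1 and 30.9 units in controls and 33.2, 42.1 and 34.4 units in mutants. Psmg1, Psmg2 and Psmg4, which help to assemble alpha rings, had log2 differences of -0.011, -0.048 and -0.025. All core chaperone groups overlapped.

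The activators that can replace the cap spanned the widest range of levels among the members. Psme2, which forms the PA28 ring with Psme1 and responds to interferon, had the highest level of all members, at 350, 395 and 433 units in controls and 361, 327 and 377 units in mutants (log2 difference of -0.14 ± 0.18). Psme1 had 231 ± 1.57 units in controls and 245 ± 29.6 units in mutants, with mutant 3 the highest at 276 units and mutant 2 the lowest at 218 units. Psme3, the gene of nuclear PA28 gamma, and Psme4, the gene of PA200, had 59.3 ± 6.65 and 23.6 ± 4.92 units in controls and 59.8 ± 11.2 and 24.2 ± 0.439 units in mutants. Psmf1, which encodes the regulator PI31, had 9.03, 8.42 and 8.76 units in controls and 10.1, 10.2 and 9.17 units in mutants, apart by a small gap (0.15 ± 0.12).

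Psma8, a testis subunit, and Psmb11, a thymus subunit, were not tested, because their means were below 1 unit. Psma8 was at 0 in 5 of 6 libraries and at 0.050 units in control 1. Psmb11 ranged from 0.245 to 0.489 units. The symbol rule also took in a pair of genes that are not subunits. Psmc3ip, a factor of meiotic recombination, had 2.60, 3.45 and 3.23 units in controls and 4.18, 5.38 and 4.21 units in mutants (log2 difference of 0.45 ± 0.17, unadjusted p of 0.0308, adjusted p of 0.589 in limma). It shares 385 identical bases with Mlx, which stood at a mean of 65.1 units, so its value is uncertain. Psme2b, a near copy of Psme2 at 99.4% of 794 aligned bases, had 1.26, 2.14 and 3.03 units in controls and 1.26, 1.51 and 0.886 units in mutants, the lowest difference of all members (-0.47 ± 0.26), and is uncertain for the same reason. Psma3, Psmb7, Psmd11, Psmd13 and Psme2 also have a near copy or an overlapping gene among the genes listed, at 1.68 to 27.6 units.

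The immunoproteasome genes, whose products replace the catalytic subunits in immune cells and after interferon, had differences of both signs. Psmb8, which replaces Psmb5, had 125, 81.2 and 165 units in controls and 74.3, 58.8 and 127 units in mutants (log2 difference of -0.53 ± 0.36, adjusted p of 0.613 in limma). Psmb9, which replaces Psmb6, had 137, 92.9 and 152 units in controls and 84.1, 74.7 and 121 units in mutants (-0.45 ± 0.26). Psmb10, which replaces Psmb7, had 143, 142 and 161 units in controls and 140, 135 and 179 units in mutants (0.016 ± 0.17). The ratio of Psmb8 to Psmb5 was 1.28, 0.679 and 1.77 in controls and 0.734, 0.471 and 0.984 in mutants, and that of Psmb9 to Psmb6 was 1.299, 0.763 and 1.36 and then 0.706, 0.529 and 0.906. The ratio of Psmb10 to Psmb7 was 1.15, 0.903 and 1.17 in controls and 0.982, 0.780 and 1.22 in mutants, where mutant 3 lay above all controls. In each group and each of the 3 ratios the library labelled replicate 2 had the lowest ratio and replicate 3 the highest. The summed level of 10 immune markers ran in the same order, at 59.6, 31.5 and 71.7 units in controls and 41.1, 38.7 and 126 units in mutants. In bulk samples, more immune cells and more RNA per cell cannot be told apart, and the part of immune cells in these ratios was not tested. Mutant 3 also stood apart in genes of the interferon response, with a mean score of 2.15 over 12 genes against -0.43 to 0.29 in the other libraries. Isg15, an interferon-induced ubiquitin-like protein, had 407 units in mutant 3 and 9.97 to 27.7 units in the others. The part of the interferon response in the high mutant 3 values of Psmd4, Psmc5, Adrm1 and Maff was not tested, and without mutant 3 their log2 differences were 0.25, 0.24, 0.50 and 0.40.

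Proteasome partners under other gene names had differences of both signs. Of 16 partners tested, 8 were higher and 8 lower, where 47.3% of all genes tested were higher. Their median log2 difference was -0.013, and 0 passed the test. Adrm1, the gene of the cap's ubiquitin receptor Rpn13, had 49.4, 43.9 and 44.3 units in controls and 62.5, 67.5 and 88.4 units in mutants. It was the only partner with groups apart, 6.25% of the 16 against 8.34% of all genes tested. The log2 difference of Adrm1, 0.64 ± 0.17, had an unadjusted p of 0.00714 and an adjusted p of 0.589 in limma. Ecpas, whose product tethers cap to core, had 21.6, 25.1 and 21.8 units in controls and 21.7, 17.9 and 14.3 units in mutants (-0.34 ± 0.18). For Ecpas it was -0.0029 with equal library totals, -0.086 with array weights and -0.20 without mutant 3. Sem1, the smallest cap subunit, stood at 233 ± 24.0 and 257 ± 44.6 units, and Pomp, the core maturation factor, at 160 ± 13.8 and 180 ± 22.6 units.

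Of 14 regulators of proteasome genes, 9 were higher and 5 lower with 0 past the test, where 47.3% of all genes tested were higher. Nfe2l1, the gene of NRF1, which restores proteasome gene expression when the proteasome is blocked, had 30.9, 32.7 and 34.3 units in controls and 38.1, 32.0 and 36.2 units in mutants, with overlapping groups. Ddi2, the protease that releases NRF1 from the endoplasmic reticulum, had 32.5, 38.4 and 32.9 units in controls and 28.9, 28.7 and 17.1 units in mutants, all below the controls (-0.49 ± 0.22, adjusted p of 0.589 in limma). For Ddi2 the difference was -0.15 with equal library totals, -0.25 with array weights and -0.25 without mutant 3. Maff, a small MAF partner of NRF1 and NRF2, had 4.58, 3.41 and 3.32 units in controls and 5.43, 5.10 and 14.3 units in mutants (0.83 ± 0.36), with mutant 3 far above the rest. Vcp, the unfoldase that pulls substrates from membranes, was also apart, at 150 ± 7.11 and 175 ± 11.04 units. Uba6, which encodes a ubiquitin-activating enzyme, stood at 6.94 ± 1.08 units in controls and 5.71 ± 0.776 units in mutants (SD, n = 3 each), with overlapping groups.

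Markers of stromal cells were also higher in the mutant libraries. All 5 of 8 stromal markers that could be tested had groups apart, against 8.34% of all genes tested. Of these 5, Col1a2, Col3a1, Dcn and Sparc averaged only 0.030 to 0.61 units in controls. They reached the mean of 1 unit through the mutant libraries, so being tested already selected for high mutant values. The sum over all 8, with no filter, was 4.97 to 7.99 units in controls and 16.3 to 37.2 units in mutants. Pdgfra was at 0 in all controls and at 0.103 to 0.204 units in mutants, and Col3a1 was at 0.0493 to 0.134 units in controls and 1.77 to 4.96 units in mutants. Summed cap genes were 1065 to 1167 units in controls and 1203 to 1353 units in mutants. Of 4 endothelial markers, Cldn5 was at 0 in 5 of 6 libraries, and none reached a mean of 1 unit. Enterocyte markers overlapped between the groups, with scores from -0.60 to 0.78 in controls and -0.054 to 1.72 in mutants. All 8 epithelial markers had positive log2 differences, as the cap genes did, against 47.3% of all genes tested. Their median was 0.21, and 1 of 8 had groups apart (12.5%). Positive differences were found in 6 of 7 enterocyte and 5 of 7 goblet markers. All 8 Paneth markers were lower in mutants, with a median of -1.39, and so were all 8 markers of dividing cells, with a median of -0.30. The part of stromal RNA and of these other cell types in the cap values was not tested.

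Leaving out libraries moved the counts, and the median of the cap stayed positive without each library in turn. The number of members above all controls in all mutants was 22 of 45 without control 2, against 11.6% of all genes tested. It was 19 without mutant 1, against 12.5% of all genes. Without each of the other libraries it was 12 or 13, against 10.7 to 18.6% of all genes. The median over members fell to 0.053 without mutant 2 and rose to 0.16 without mutant 3. When libraries were rescaled to equal totals, the median of all genes moved to 0.30 and that of members to 0.47, so members stood 0.17 above all genes, close to the 0.14 of the deposited scale. With upper-quartile scaling 27 of 45 members were positive and 8 were above all controls, against 6.39% of all genes. The median of members was then 0.062 and that of all genes -0.074, so members stood 0.14 above all genes. The median of the cap was 0.11 to 0.53 and that of the core 0.0017 to 0.47 over all settings other than the male comparison, where they were 0.057 and -0.082.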

How the data were processed

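The deposited table holds 1 signal value per gene and library, normalized by the authors. The submitters' processing notes name kallisto 0.46.1, DESeq2 1.40.1 and mm9, without a role or order. Each column was tied to a sample through its group name and number, and the columns named exonhet were taken as the mutant group, the only group not named control. 0 value columns lacked a sample. The members and gene lists were chosen with earlier results of these data known. Values were tested as log2(units + 1) with limma 3.58.1 in R 4.3.3 (mean-variance trend, group as the only term), over the 11837 genes that averaged 1 unit or more, with Benjamini-Hochberg adjustment at 0.05. Fold changes on this scale understate the change of low genes. The procedure was tested on simulated data with larger differences than those of the members and with noise independent between genes. That test does not cover differences as small as those reported here.

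Genes were named by rule: in each role the member with the smallest p and the one with the highest level, the catalytic members, the 5 largest and 5 smallest log2 differences, Ctnnb1, the immunoproteasome genes, and the 2 smallest p of each other pathway list. A gene that this rule takes in is not reported here. The remaining members were added to account for all of them. Sem1, Pomp, Vcp and Nfe2l1, the split of cap against core, the count of positive differences and the catalytic ratios were chosen after values were seen. Reads were estimated from the value of 1 read times transcript length less 190 bases, the length that put most genes within 3% of a common step, and are approximate. Near copies were found with BLAST 2.17.0 (at least 95% identity over 200 bases). Promoters came from RefSeq (GRCm38.p6), with 39 of 47 members matched. Tables were made with pandas 2.3.3 and NumPy 2.4.6 under Python 3.11.15, and figures with matplotlib 3.10.9. Alternatives covered the pseudocount, the filter, scaling, array weights, sex, a replicate block and leaving out each library.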

Additional observations from a re-analysis of the deposited data

How the results depend on the processing

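The number of members past the test was 0 under every alternative run, with a smallest adjusted p in limma from 0.133 (array weights) to 0.921 (sex as a covariate). Over all genes 2 passed, against 1 with a pseudocount of 5, 0 without a filter, 25 with equal library totals, 6 with equal totals without defensins, 27 with array weights, 0 with sex as a covariate, and 0 to 4 when 1 library was left out (4 without control 2, 0 without mutant 3). The cause was not tested. The median of members was 0.12, against 0.47 with equal totals, and 0.053 to 0.16 when 1 library was left out. Members above all controls numbered 12, against 8 with upper-quartile scaling, 10 with scaling by median of ratios and 19 with equal totals. When 1 library was left out they numbered 12 to 22, so the count over all alternatives ran from 8 to 22. The share of all genes apart in this way was larger with equal totals and smaller with upper-quartile scaling. With fewer libraries the share of all genes apart was also larger, at 10.7 to 18.6%. Members below all controls numbered 0, against 1 with upper-quartile scaling and 0 to 4 when 1 library was left out (4 without mutant 2). Positive members numbered 27 to 44 over the alternatives that kept both sexes, 23 among males and 41 among females. With array weights the log2 difference was 0.32 for Psmd3, 0.23 for Psmc5, 0.034 for Psmb5, 0.44 for Adrm1 and 0.41 for Maff. Among the 36 genes followed, the sign of the log2 difference changed in 0 to 6 per alternative, and 0 of them passed the test.

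Same-numbered libraries had correlations of -0.292, 0.333 and 0.325 between their deviations. Those of differently numbered libraries ran from -0.487 to 0.212. Deviations from a mean of 3 libraries cannot settle whether the numbers pair the samples. The main fit did not pair them, because the labels state no pairing. With a replicate block 0 genes and 0 members passed.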
